A study of Homo sapiens with 12 samples.

Results

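The ZNF genes are the largest named family of human zinc finger genes, and those with counts high enough to follow in newly made RNA are described here. The members are the rows of the count matrix whose symbol is ZNF, a number and at most 1 closing letter, and whose mean raw count over the 12 libraries was at least 200. Of 23434 rows, 524 carried such a symbol and 230 of these passed the limit, while 294 fell below it, 5 of them without a single count. The counts come from EU-seq, in which cells take up 5-ethynyl-uridine (EU) and the RNA that carries it is coupled to biotin, pulled down and sequenced, so that the libraries hold RNA made during the pulse. The cells were U2OS, a human osteosarcoma line, expressing MycER, a MYC fused to the estrogen receptor that 4-hydroxytamoxifen (OHT) activates. They had been infected with a non-targeting shRNA (shNT) or an shRNA against CDK12, a kinase that phosphorylates RNA polymerase II in elongation (shCDK12), and each was grown with or without 300 nM OHT for 40 h. The groups are therefore shNT, shNT_OHT, shCDK12 and shCDK12_OHT, with 3 libraries in each. All 4 groups shared the MycER line, the viral infection, doxycycline at 1 µg/mL to switch on the shRNA, an arrest in 100 ng/mL nocodazole for 8 h with shake-off of the arrested cells, a release for 12 h, and 0.5 mM EU during the last 2 h. The 40 µg of human RNA in a pull-down were mixed with 10 µg of labelled mouse RNA, whose counts were not used here. The labels do not say whether replicates were separate cultures, so p-values measure only the spread between these libraries, which may be technical.

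Most ZNF proteins read DNA with arrays of C2H2 fingers, each a small loop of the chain that is held by a zinc ion between cysteine and histidine pairs. Many carry a KRAB domain as well, which binds the co-repressor TRIM28 (also KAP1) and through it the histone methyltransferase SETDB1 and HP1 proteins, and such KRAB zinc fingers are best known for silencing transposable elements. The family grew by tandem duplication, above all on chromosome 19, so that neighbours are often close copies of each other. Members without KRAB have other roles, among them transcriptional activation, chromatin complexes, ubiquitin and SUMO ligation and ribosome assembly.

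Library totals ran from 1251695 to 10447836 counts, with 1251695 to 3666406 in shNT_OHT and 5378438 to 10447836 in shCDK12_OHT. Levels below are CPM, the counts of a gene relative to its library's total as scaled by the TMM method. Of the genes that mark the line, VIM, COL1A1, SPARC, RUNX2 and CDH2 were detected in all 4 groups, whereas COL1A2, TWIST1, TERT, CDKN2A, the leukocyte genes PTPRC and CD3E and the hepatocyte genes ALB and APOA1 were at or below 1.37 CPM in every library. Of the epithelial genes, KRT19 was at 0 in every library and CDH1 reached 12.2 CPM, while EPCAM was at 7.88, 9.55 and 6.66 CPM in the libraries labelled shCDK12 and no higher than 2.85 CPM elsewhere. All 5 detected line markers were called lower in the libraries labelled shCDK12 than in shNT, with log2 fold changes of -0.85 (adjusted p = 4.69e-09) at VIM, -1.80 (adjusted p = 2.84e-13) at COL1A1, -1.22 (adjusted p = 2.2e-10) at SPARC, -1.85 (adjusted p = 6.68e-14) at RUNX2 and -1.21 (adjusted p = 3.05e-07) at CDH2. Mean levels went from 323 ± 13.0 CPM to 179.5 ± 11.1 CPM at VIM and from 218 ± 26.1 CPM to 61.1 ± 3.32 CPM at RUNX2 (SD, n = 3). With OHT in both groups VIM and COL1A1 were called lower in the libraries labelled shCDK12_OHT, at -0.91 (adjusted p = 7.02e-05) and -0.58 (adjusted p = 0.00685), while SPARC, RUNX2 and CDH2 were at -0.03 (adjusted p = 0.878), -0.28 (adjusted p = 0.0968) and -0.39 (adjusted p = 0.0909). The part of such shifts in the results below was not tested. The targeted gene CDK12 was at 323, 289 and 300.2 CPM in shNT, 434, 356 and 400.5 CPM in shNT_OHT, 293, 277 and 298 CPM in the libraries labelled shCDK12 and 215, 208 and 218 CPM in those labelled shCDK12_OHT. It was thus lower in the libraries labelled shCDK12_OHT than in shNT_OHT, by a log2 fold change of -0.88 (adjusted p = 0.000111), but not detectably lower in the libraries labelled shCDK12 than in shNT, with -0.08 (adjusted p = 0.447) and 0.01 under upper-quartile scaling. Upon OHT it changed by 0.38 in shNT (edgeR, adjusted p = 0.0352), a call lost without shNT replicate 1, 2 or 3 or shNT_OHT replicate 3. In the libraries labelled shCDK12 it changed upon OHT by -0.44 (edgeR, adjusted p = 9.55e-05). The difference between these responses was -0.83 (edgeR, adjusted p = 4.55e-05). These values are of RNA made during the pulse, and neither the CDK12 mRNA pool nor the protein was measured here. They therefore cannot show whether CDK12 was silenced. Whether the labels of the shRNA groups fit their libraries was not tested. For this reason the shRNA groups are called by their labels throughout, and every direction drawn from them is that of the libraries so labelled. The first library of shNT_OHT stood apart from its replicates: the members lay at a median of -0.25 on the log2 scale against the other two (-0.39 for KRAB members, -0.05 for the rest, -0.03 over all genes with a mean count of at least 200), and 73 of the 230 (31.7%) had their lowest value of the 12 libraries there, against 22.3% of those genes.

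Of the 230 genes, 228 had a coding sequence in the annotation used and 2, ZNF252P and ZNF542P, are pseudogenes. A KRAB domain was found in 145 of the coding members and not in 83, and the fingers counted per protein had a median of 11, from 0 in ZNF330 and ZNF365 to 36 in ZNF142. KRAB members had a median of 12 fingers and the others 8. Chromosome 19 held 97 members, 87 of them with KRAB, and chromosome 16 held 16. In gene order, 93 members lay in 16 runs of at least 3 members with no protein-coding gene between them except other zinc finger genes, 12 of these runs on chromosome 19. Run members may be close copies of each other, which was not measured here, and reads may be split or lost between near-identical copies, so the count of any single run member is uncertain. In all, 117 members overlapped the span of another gene, and whether the counting used strand is not given in the sources used here, so reads of such neighbours may be mixed in.

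The mean raw count per member ran from 200.6 to 4580.3 with a median of 497.2. Just inside the limit were ZNF174 at 200.6, ZNF77 at 201.2 and ZNF236 at 209.8 counts, and just outside it ZNF354C at 195.6, ZNF711 at 196.9 and ZNF611 at 198.2. A raw mean leans towards the deep libraries, here mostly those labelled shCDK12 and shCDK12_OHT: 94 members averaged under 200 counts in shNT_OHT and 50 in shNT, against 2 and 0 in the labelled shRNA groups, and 135 averaged at least 200 in every group. With counts scaled for depth first, 228 genes passed, all of them members. All counts of members below are descriptions of genes chosen by their level. Together the members took 2.65 to 2.72% of the counts of the shNT libraries and 2.53 to 3.06% in shNT_OHT. They took 3.22 to 3.23% in the libraries labelled shCDK12 and 3.16 to 3.29% in those labelled shCDK12_OHT. In the shallowest library, with 1251695 counts, the 95% Wilson interval of this share was 3.03 to 3.09%, which covers counting error only. The median coefficient of variation between replicates was 9.02% in shNT, 19.2% in shNT_OHT, 7.31% in shCDK12 and 5.45% in shCDK12_OHT.

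MycER binds DNA at the E-box, whose best known form is CACGTG, and the promoters of the members were searched for these letters, which read the same on both strands. Of the 199 members with an entry in the RefSeq promoter table for GRCh38.p14, 11 held CACGTG in the 250 bases before the start (5.53%), compared with 6.34% of all 35116 promoters and 9.59% of the 4943 promoters of genes with a mean count of at least 200. These were ZNF669, ZNF512, ZNF318, ZNF292, ZNF84, ZNF23, ZNF460, ZNF587, ZNF587B, ZNF814 and ZNF324. A match is a description and not a binding site. The 250 bases before the start are printed 5′ to 3′ for 3 of them and for ZNF57, one of the strongest risers below, which has no match; capitals mark CACGTG. ZNF669 lies in a run of 5 members that all rose in the libraries labelled shCDK12 against shNT. ZNF460 and ZNF318 are the only members with a match that were called upon OHT in shNT cells, 1 in each direction. ZNF669 and ZNF460 are outside the rule for named genes and were chosen after their values were seen. The windows are chr1:247104357-247104606 (minus strand) for ZNF669, chr19:57279732-57279981 (plus) for ZNF460, chr6:43369648-43369897 (minus) for ZNF318 and chr19:2900678-2900927 (plus) for ZNF57.
ZNF669: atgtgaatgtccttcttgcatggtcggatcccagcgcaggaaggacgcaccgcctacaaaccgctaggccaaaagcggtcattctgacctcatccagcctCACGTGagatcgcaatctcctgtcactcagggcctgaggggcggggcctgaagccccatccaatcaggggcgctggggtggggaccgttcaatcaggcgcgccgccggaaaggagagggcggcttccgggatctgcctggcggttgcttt
ZNF460: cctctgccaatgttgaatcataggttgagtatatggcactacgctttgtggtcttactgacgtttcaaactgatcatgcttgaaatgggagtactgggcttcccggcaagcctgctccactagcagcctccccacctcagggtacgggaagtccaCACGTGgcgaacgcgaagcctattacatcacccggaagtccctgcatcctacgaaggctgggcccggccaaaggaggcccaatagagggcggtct
ZNF318: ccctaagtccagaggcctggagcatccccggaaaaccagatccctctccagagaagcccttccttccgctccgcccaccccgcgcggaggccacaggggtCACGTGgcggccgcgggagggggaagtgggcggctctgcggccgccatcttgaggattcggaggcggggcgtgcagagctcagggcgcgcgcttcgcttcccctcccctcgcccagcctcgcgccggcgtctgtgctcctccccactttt
ZNF57: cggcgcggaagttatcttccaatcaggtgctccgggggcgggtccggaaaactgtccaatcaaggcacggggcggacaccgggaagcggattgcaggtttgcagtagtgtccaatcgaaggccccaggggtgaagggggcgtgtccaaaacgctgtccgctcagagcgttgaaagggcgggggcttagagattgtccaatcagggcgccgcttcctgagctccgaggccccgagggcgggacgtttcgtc
Between the motif and the start lay 144 bases in ZNF669, 89 in ZNF460 and 144 in ZNF318. The GC content of the 4 windows was 62.4%, 55.6%, 70.8% and 63.2% in the order printed.

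The first comparison asks how the members differ between the shRNA groups when MycER is not activated. In the libraries labelled shCDK12, more of the ZNF genes were higher than lower against shNT: 119 of 230 rose and 57 fell at an adjusted p under 0.05 (edgeR, quasi-likelihood test; Benjamini-Hochberg over every gene tested), and 54 were not called. Over all 11718 genes tested, 62.0% were called, 29.6% higher and 32.4% lower, and of the 5965 genes that met the same count limit, 35.1% were higher and 34.0% lower. The share of members that rose was 51.7% and the share that fell 24.8%. The median log2 fold change was 0.30 over the members and 0.01 over the genes with that count. Between the groups 126 members did not overlap with the labelled shCDK12 libraries above and 60 with them below, where 30.8% and 33.7% of all genes tested did so. Among the 135 members with at least 200 counts in every group, 67 rose and 41 fell. These are bulk libraries, in which fewer cells making an RNA and less of that RNA per cell cannot be told apart, and the scaled values are relative to the other genes of a library.

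**Figure D1:**
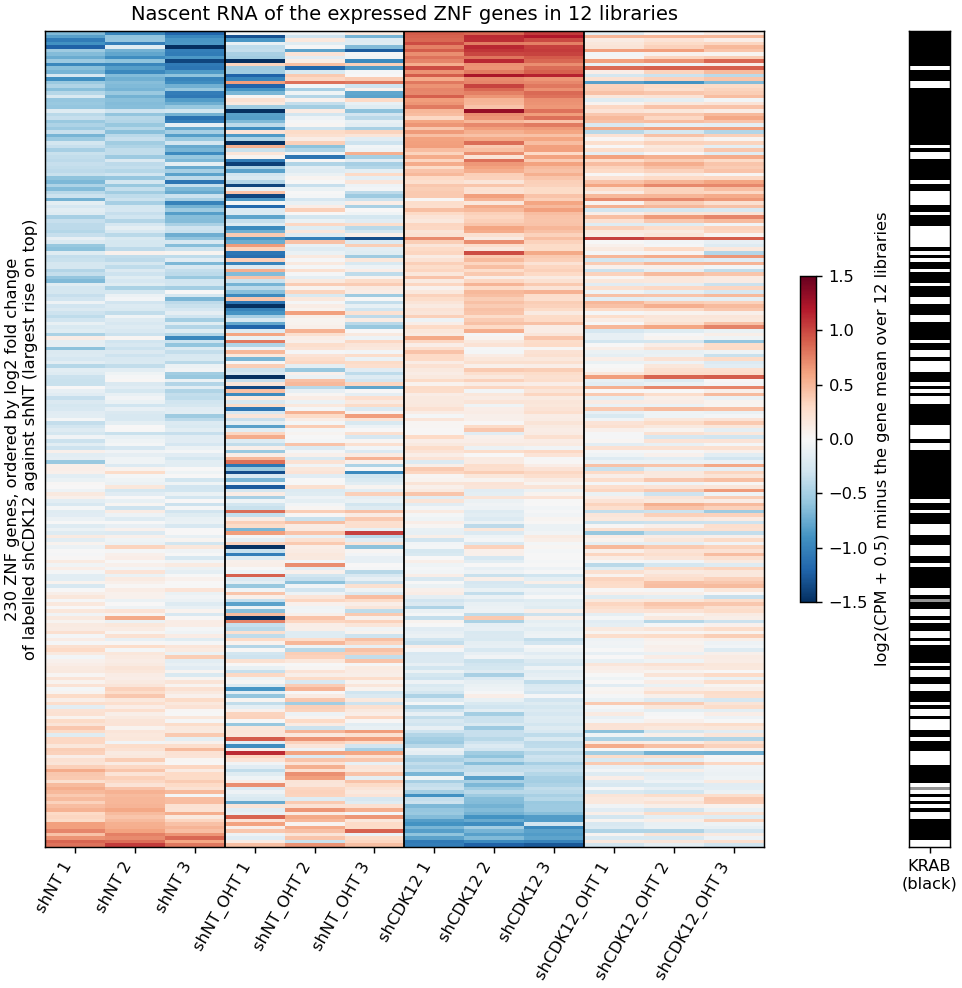
Each row is 1 of the 230 ZNF genes and each column 1 of the 12 libraries; colour gives log2(CPM + 0.5) minus the gene's mean over the libraries, cut at 1.5 either way, and rows are ordered by the log2 fold change of the libraries labelled shCDK12 against shNT, which fixes the pattern in those 6 columns. The strip marks KRAB members in black, members without KRAB in white and those with no coding sequence in grey; the first shNT_OHT column is paler or bluer than its replicates in many rows.

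Members with and without KRAB both rose more often than they fell here. Over all genes tested 29.6% were higher and 32.4% lower, and at the same count limit 35.1% and 34.0%. Of the 145 with KRAB, 78 rose and 29 fell with a median log2 fold change of 0.34, and of the 83 without, 41 rose and 27 fell with a median of 0.28. On chromosome 19, 45 of the 87 KRAB members rose and 18 fell, and on the other chromosomes 33 of 58 rose and 11 fell. The number of fingers had a Pearson's r of 0.00387 with the fold change across the 228 coding members, a description over genes that are not independent and share their libraries. Of 59 genes of other C2H2 families with the same count limit (ZBTB, ZSCAN, ZKSCAN, ZFP and KLF), 21 rose (35.6%) and 19 fell (32.2%), with a median of 0.06. These shares are near those of all genes at that limit.

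**Figure D2:**
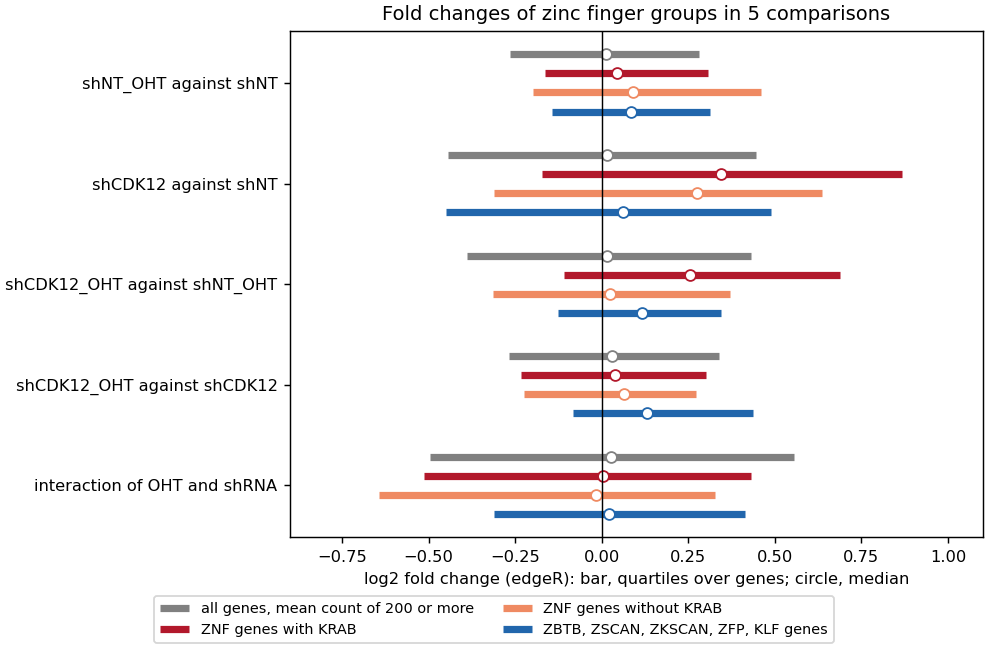
Horizontal bars span the lower to the upper quartile of log2 fold changes over genes and circles mark medians, for all 5965 genes with a mean count of at least 200, 145 ZNF genes with KRAB, 83 without and 59 genes of other C2H2 families. The bar of the KRAB members sits furthest to the right in both comparisons of the shRNA groups, with medians of 0.34 and 0.25. The comparison with OHT includes the first shNT_OHT library, which lay low for KRAB members.

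The largest rises in the libraries labelled shCDK12 were KRAB genes of little known function. ZNF57 was at 70.3, 56.2 and 48.6 CPM in shNT and 210.3, 205 and 231 CPM in shCDK12, a log2 fold change of 1.86 ± 0.11 (adjusted p = 4.06e-13), where ± gives the standard error. ZNF670 went from 21.3, 25.0 and 19.0 CPM to 70.2, 82.7 and 87.9 CPM, a log2 fold change of 1.86 ± 0.15 (adjusted p = 7.59e-11). ZNF529 was at 49.2, 68.1 and 55.6 CPM in shNT against 186, 220.5 and 204 CPM, a log2 fold change of 1.81 ± 0.11 (adjusted p = 8.82e-13). In all 3 the lowest labelled shCDK12 library was more than 2 times the highest shNT library. ZNF589, first described in blood stem and progenitor cells, rose by 1.79, ZNF124 by 1.77 and ZNF215, which lies in the imprinted region of chromosome 11, by 1.74 on the log2 scale. The groups did not overlap in any of the 6, as the rule for naming them required.

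The falls were led by ZNF641 and ZNF608. ZNF641, which has no KRAB domain by the search used, was at 159, 186 and 156 CPM in shNT and 43.5, 38.7 and 37.0 CPM in shCDK12, a log2 fold change of -2.09 ± 0.11 (adjusted p = 3.81e-14), the largest of any member in this comparison. ZNF608, which has a paralogue in ZNF609, was at 220.2, 215 and 181 CPM against 57.0, 61.3 and 59.6 CPM, a log2 fold change of -1.80 ± 0.10 (adjusted p = 8.25e-14). Every shNT library held more than 2 times the level of any labelled shCDK12 library at both genes. ZNF189 fell from 134, 137 and 153 CPM to 47.9, 52.8 and 48.3 CPM, and ZNF772 fell by 1.39, the X-linked KRAB gene ZNF41 by 1.38 and ZNF561 by 1.27 on the log2 scale.

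The same question was asked with MycER activated, by setting the libraries labelled shCDK12_OHT against shNT_OHT. Here 76 members rose, 32 fell and 122 were not called, with a median log2 fold change of 0.18, compared with 45.4% of 11668 genes called, 23.8% higher and 21.6% lower. Of the genes with the same count limit, 25.7% were higher and 25.7% lower with a median of 0.01. The groups did not overlap for 86 members with the labelled shCDK12_OHT libraries above and for 44 with them below, against 29.2% and 26.0% of all genes tested. Of the 145 KRAB members 54 rose and 13 fell, with a median of 0.25. Of the 83 without KRAB, 22 rose and 19 fell, with a median of 0.02, and their balance turned to 17 higher and 20 lower under upper-quartile scaling. Without the first shNT_OHT library, which lay low for KRAB members, 84 members rose and 56 fell, and among KRAB members 59 rose and 31 fell. The number of members called, 108, was 70, 71 and 63 without shCDK12_OHT replicates 1, 2 and 3. Among members with at least 200 counts in every group, 33 rose and 27 fell with a median of 0.08.

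ZNF618, a partner of the hydroxymethylcytosine reader UHRF2, rose most with MycER active. It was at 30.1, 27.2 and 21.7 CPM in shNT_OHT and 115, 105 and 104 CPM in shCDK12_OHT, a log2 fold change of 2.06 ± 0.16 (adjusted p = 7.83e-06). ZNF395, a factor linked to the hypoxia response, was at 52.0, 33.0 and 42.0 CPM against 138, 142 and 142 CPM, a log2 fold change of 1.71 ± 0.16 (adjusted p = 2.15e-05). ZNF10 (KOX1), whose KRAB domain is widely used in engineered repressors, was at 11.0, 34.6 and 16.2 CPM against 49.2, 51.5 and 58.8 CPM, a log2 fold change of 1.55 ± 0.30 (adjusted p = 0.00189). The labelled shCDK12_OHT libraries were above every shNT_OHT library at all 3, and the shNT_OHT values of ZNF10 were spread more than 3-fold. ZNF813 rose by 1.56, ZNF816 by 1.43 and ZNF215 by 1.34.

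Falls in this comparison were led by ZNF704, a paralogue of ZNF395. It was at 240.3, 276 and 269 CPM in shNT_OHT and 88.2, 83.3 and 98.7 CPM in shCDK12_OHT, a log2 fold change of -1.52 ± 0.12 (adjusted p = 9.3e-06). ZNF142, with the most fingers of any member, was at 388, 271 and 267 CPM against 123, 109 and 108 CPM, a log2 fold change of -1.43 ± 0.15 (adjusted p = 5.56e-05). Its 3 libraries of either group did not overlap, although the first shNT_OHT library was far above the other two. ZNF526 fell by 1.20, ZNF239 by 1.14, ZNF41 by 0.99 and ZNF696 by 0.96 on the log2 scale.

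The 2 comparisons of the shRNA groups share no library, but the members were chosen by counts over all 12. In both comparisons 52 members (22.6%) rose, 40 of these with KRAB. This compares with 10.7% of the 11440 genes tested in both and 13.0% of the genes with a mean count of at least 200. In both, 13 (5.65%) fell, against 11.0% and 12.5%. Another 10 rose without OHT and fell with it, 7 did the reverse and 28 were called in neither. On average 94 members did not reach 200 counts in shNT_OHT and 50 in shNT, against 2 and 0 in the labelled shRNA groups. Members rising in both were not counted among the 135 with at least 200 counts in every group. Of these 135, 67 rose and 41 fell without OHT, and 33 rose and 27 fell with it. ZNF215 and ZNF41 were the only genes among the 6 most changed in the same direction in both. At ZNF215 the values were 36.8, 32.6 and 26.1 CPM in shNT, 41.7, 30.5 and 22.3 CPM in shNT_OHT, 101, 113 and 111 CPM in shCDK12 and 82.3, 82.2 and 71.5 CPM in shCDK12_OHT. Both labelled shRNA groups were above both shNT groups there. At ZNF41 the values were 124, 112 and 101 CPM, 98.1, 101 and 137 CPM, 41.7, 45.5 and 42.4 CPM and 53.9, 53.8 and 60.6 CPM in the same order, and both labelled shRNA groups were below both shNT groups.

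Members that neighbour each other in the genome were counted by run. Of the 93 members in runs, 57 rose and 13 fell in the libraries labelled shCDK12 against shNT, with a median log2 fold change of 0.44. In those labelled shCDK12_OHT against shNT_OHT, 38 rose, 5 fell and 50 were not called, with a median of 0.30. The latter counts include the first shNT_OHT library, which lay at a median of -0.39 against its replicates for KRAB members. On chromosome 19, which holds 12 of the 16 runs, 87 of 97 members carry KRAB. Run members with at least 200 counts in every group were not counted apart. Without OHT 51.7% of all 230 members rose and 24.8% fell, against 29.6% and 32.4% of all genes tested. With OHT these shares were 33.0% and 13.9% of members, against 23.8% and 21.6% of all genes tested. All 5 genes of the run on chromosome 1 from ZNF695 to ZNF496 rose without OHT, with a median of 1.60. They are ZNF695, ZNF670, ZNF669, ZNF124 and ZNF496; ZNF669 and ZNF496 were named after their values were seen. With OHT 3 of the 5 rose, 1 fell and 1 was not called, with a median of 0.75. The fall was that of ZNF496, at -0.377, not called by edgeR without shCDK12_OHT replicate 1, 2 or 3 (adjusted p = 0.0937, 0.0892 and 0.155). The rise of ZNF124 with OHT was not called by edgeR without shCDK12_OHT replicate 3 (adjusted p = 0.0507). ZNF695 was at 40.5, 30.4 and 31.6 CPM in shNT and 91.3, 113 and 108 CPM in shCDK12, a log2 fold change of 1.60 ± 0.14 (adjusted p = 3.13e-10). ZNF669, whose promoter is printed above, was at 58.3, 58.7 and 44.6 CPM against 92.4, 114 and 105 CPM, a log2 fold change of 0.93 ± 0.12 (adjusted p = 5.37e-07). ZNF496 was at 58.6, 54.5 and 57.1 CPM against 83.1, 72.9 and 79.9 CPM, the smallest rise of the 5 at 0.47 ± 0.12 (adjusted p = 0.00181). No library of one group reached the other at any of these 3 genes.

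Other runs on chromosome 19 behaved in different ways. Their counts stand beside 29.6% of all genes tested called higher and 32.4% lower without OHT, and 23.8% and 21.6% with it. In the run from ZNF600 to ZNF816 all 5 members rose without OHT, with a median of 0.65, and 4 rose with OHT, with a median of 1.04; ZNF816 was not called without OHT when shNT replicate 1 or 3 was left out (adjusted p = 0.0583 and 0.0706). In the run from ZNF845 to ZNF331, 5 of 6 rose without OHT with a median of 0.62 and all 6 rose with it with a median of 0.91; of its members, named after their values were seen, the call with OHT was lost at ZNF845 without shCDK12_OHT replicate 3 (adjusted p = 0.0512), at ZNF765 without shCDK12_OHT replicate 1, 2 or 3 (adjusted p = 0.0645, 0.0693 and 0.0781), and at ZNF761 without shNT_OHT replicate 3 (adjusted p = 0.0847) or shCDK12_OHT replicate 1 or 3 (adjusted p = 0.0731 and 0.0787). In the run of 10 from ZNF146 to ZNF569, 7 rose and 1 fell without OHT, and 2 rose with it. In the run of 6 from ZNF699 to ZNF562, by contrast, 2 rose and 3 fell without OHT with a median of -0.49, and the largest run, 14 genes from ZNF772 to ZNF256, had 5 rises and 3 falls with a median of 0.05. Whether reads shared between close copies had a part in these counts was not tested.

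**Figure D3:**
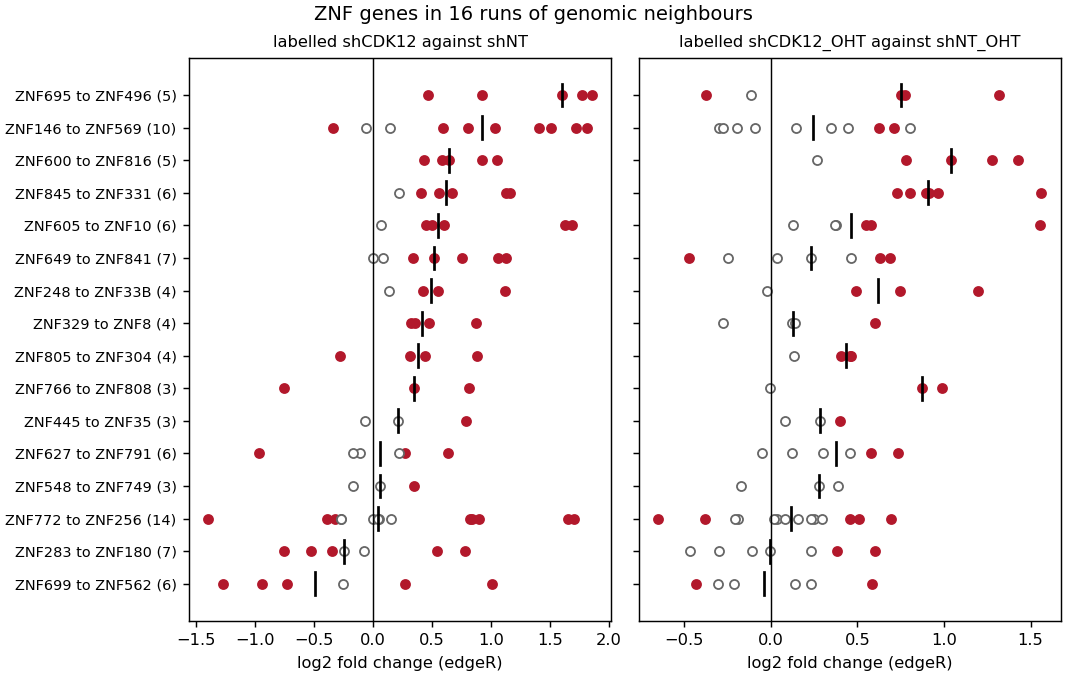
Each point is 1 ZNF gene, placed by its log2 fold change (horizontal axis) in the libraries labelled shCDK12 against shNT (left) and labelled shCDK12_OHT against shNT_OHT (right); rows are the 16 runs of neighbouring members, named by their first and last gene with the number of genes in brackets. Filled points were called at an adjusted p under 0.05, open points were not, and vertical bars mark medians. The run from ZNF695 to ZNF496 is at the top with a median of 1.60 on the left. The right panel includes the first shNT_OHT library, which lay low for KRAB members.

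The response to MycER activation was compared first in shNT cells. Between shNT_OHT and shNT, 31 rose, 10 fell and 189 were not called, with a median log2 fold change of 0.06, where 17.3% of 10272 genes were called, 9.05% higher and 8.29% lower. In percent, 13.5% of members rose and 4.35% fell, against 12.8% and 9.36% of the genes with a mean count of at least 200. Members not overlapping between the groups numbered 53 with shNT_OHT above and 23 with it below, against 16.9% and 19.0% of all genes tested. Of KRAB members 17 rose and 3 fell, and of the others 14 rose and 7 fell. Among the 77 shortest genes 18 rose and 2 fell with a median of 0.20, while among the 77 longest 6 rose and 7 fell with a median of -0.02. This was the least stable of the counts: it was 13 to 17 members in all when any 1 shNT library was left out (17, 13 and 14 without replicates 1, 2 and 3), 73, 65 and 25 without shNT_OHT replicates 1, 2 and 3, and 76 with all 12 libraries in 1 fit.

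ZNF704 and ZNF550 rose most upon OHT in shNT cells. ZNF704 was at 105, 99.5 and 81.2 CPM without OHT and 240.3, 276 and 269 CPM with it, a log2 fold change of 1.45 ± 0.13 (adjusted p = 1.12e-05). ZNF550, a KRAB gene, was at 46.8, 46.6 and 44.1 CPM against 116, 126 and 118 CPM, a log2 fold change of 1.38 ± 0.15 (adjusted p = 4.09e-05). Every OHT library was more than 2 times the highest library without OHT at both. ZNF57 rose by 0.93, ZNF584 by 0.89 and ZNF239 by 0.87. ZNF593, the homologue of a yeast factor for export of the large ribosomal subunit, rose by 0.84 (adjusted p = 0.0151) but was not called without shNT replicate 1 (0.78, adjusted p = 0.0785) or 3 (adjusted p = 0.0714), or with trends in gene length and GC content removed (0.46, adjusted p = 0.0606).

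Falls upon OHT were smaller. ZNF318, a coregulator of the androgen receptor whose promoter is printed above, was at 184, 187 and 182 CPM without OHT and 113, 116 and 111 CPM with it, a log2 fold change of -0.70 ± 0.12 (adjusted p = 0.00187). ZNF608 was at 220.2, 215 and 181 CPM against 130.3, 94.9 and 149.9 CPM, a log2 fold change of -0.70 ± 0.16 (adjusted p = 0.00721). ZNF516, which associates with histone demethylase complexes, fell by 0.62. ZNF618, at -0.79 (adjusted p = 0.0222), was not called without shNT replicate 1 (-0.69, adjusted p = 0.124), shNT replicate 2 (-0.77, adjusted p = 0.104) or shNT_OHT replicate 3 (-0.62, adjusted p = 0.107). ZNF813, at -0.76 (adjusted p = 0.0293), was not called without shNT replicates 1, 2 or 3 (adjusted p = 0.126, 0.0857 and 0.0926) or shNT_OHT replicate 3 (adjusted p = 0.0753). ZNF772, at -0.63 (adjusted p = 0.0183), was not called without shNT replicate 2 or 3 or shNT_OHT replicate 3 (adjusted p = 0.118, 0.0832 and 0.0823), or at equal depth (adjusted p = 0.102). Of the genes with CACGTG in the promoter, ZNF460 was at 183, 186 and 212 CPM and 237, 285 and 253 CPM, a log2 fold change of 0.41 (adjusted p = 0.0384), which was not called without shNT replicate 1, 2 or 3 (adjusted p = 0.169, 0.19 and 0.0565) or shNT_OHT replicate 3 (adjusted p = 0.0712). Among the members called in this comparison that had a promoter entry, 1 of 26 risers and 1 of 9 fallers held the motif.

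The same OHT treatment was compared in the libraries labelled shCDK12. Between shCDK12_OHT and shCDK12, 77 rose and 59 fell with a median log2 fold change of 0.05, where 48.9% of 12519 genes were called, 27.5% higher and 21.5% lower; of the genes with a mean count of at least 200, 31.7% were higher and 26.6% lower. The balance depended on scaling and turned to 60 higher and 74 lower under upper-quartile scaling and 60 and 69 with DESeq2. The groups did not overlap for 85 members with OHT above and 68 with it below, against 31.7% and 24.7% of all genes tested. ZNF608 rose from 57.0, 61.3 and 59.6 CPM to 134, 135 and 143 CPM, a log2 fold change of 1.21 ± 0.09 (adjusted p = 7.14e-09). ZNF114 rose by 0.97, ZNF641 by 0.95, ZNF853 by 0.91, ZNF772 by 0.90 and ZNF699 by 0.87. ZNF704 went from 269.6, 259 and 257 CPM to 88.2, 83.3 and 98.7 CPM, a log2 fold change of -1.55 ± 0.08 (adjusted p = 2.04e-10). ZNF695 went from 91.3, 113 and 108 CPM to 40.2, 38.4 and 36.3 CPM, a log2 fold change of -1.45 ± 0.10 (adjusted p = 7.14e-09). At ZNF704 and ZNF695 every library with OHT was below every library without it, by more than 2-fold. ZNF57 fell by 0.96, ZNF485 by 0.96, ZNF420 by 0.90 and ZNF841 by 0.89.

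Whether the OHT response differed between the shRNA groups was tested with an interaction term over all 12 libraries. It was called at 114 members, 46 with a higher response in the libraries labelled shCDK12 and 68 with a lower one, where 45.2% of 11699 genes were called, 25.6% higher and 19.6% lower; of the genes with a mean count of at least 200, 28.1% were higher and 25.7% lower. The split became 61 and 62 without shNT_OHT replicate 2. At 112 of the 114 the 2 responses had opposite signs, a share that choosing genes by this test raises. Without that choice the 2 responses still ran against each other, with r = -0.619 over all members. Over all genes with both responses (10233), r was -0.62, so the opposition was not particular to the members. Its cause was not tested, nor was the fit of the labels to the libraries. ZNF704 had the largest interaction, -2.99 ± 0.16 (adjusted p = 2.48e-11): it rose upon OHT in shNT and fell in the libraries labelled shCDK12, so that shNT_OHT and shCDK12 were at similar levels and shNT and shCDK12_OHT at similar lower ones. ZNF57 stood at 58.4 ± 11.0 CPM in shNT (SD, n = 3), 112 ± 10.1 CPM in shNT_OHT, 215 ± 13.4 CPM in shCDK12 and 111 ± 10.4 CPM in shCDK12_OHT, an interaction of -1.89 ± 0.18 (adjusted p = 1.11e-07). ZNF608 ran the other way, at 205 ± 21.3, 125 ± 27.9, 59.3 ± 2.17 and 137 ± 4.56 CPM in the same order, an interaction of 1.90 ± 0.18 (adjusted p = 1.18e-07). By group means, 83 members were highest in shCDK12, 70 in shCDK12_OHT, 43 in shNT_OHT and 34 in shNT. These are 36.1%, 30.4%, 18.7% and 14.8% of members, against 27.7%, 24.0%, 26.0% and 22.2% of the genes with a mean count of at least 200. By the same means, 97 were lowest in shNT but 16 in shCDK12_OHT.

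**Figure D4:**
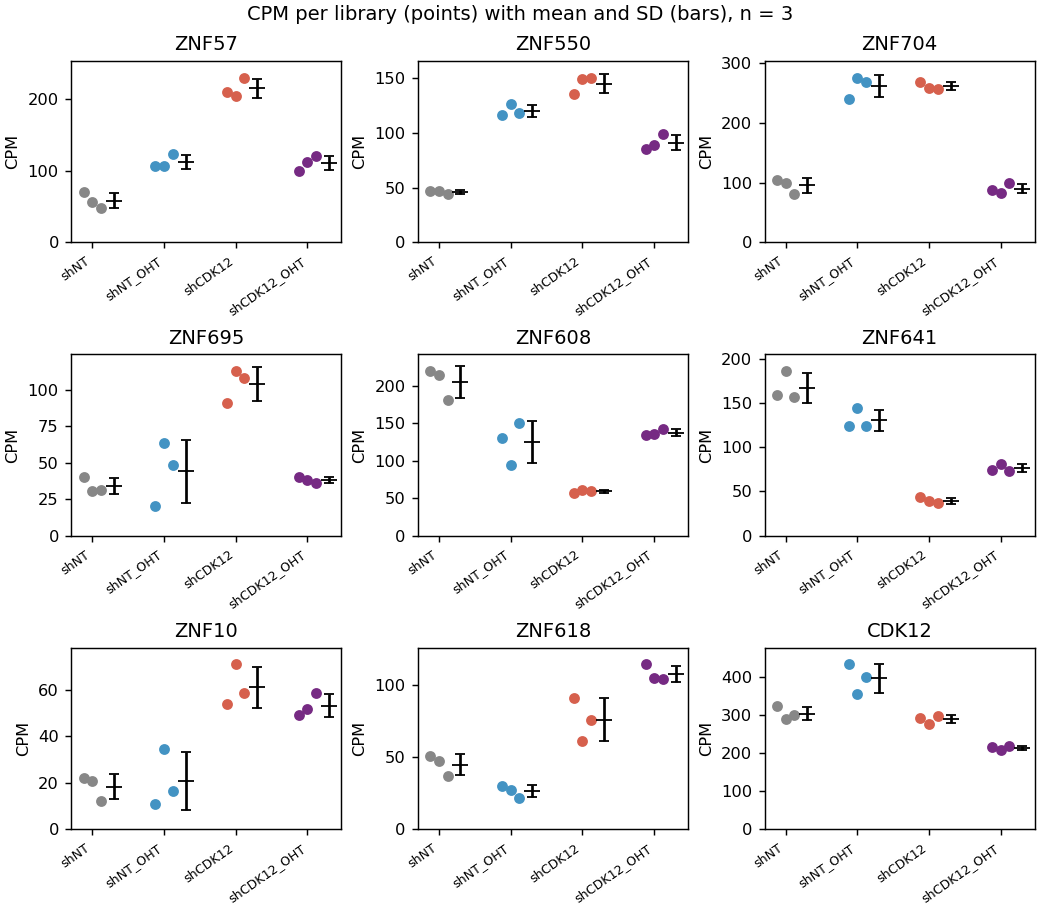
CPM of 8 ZNF genes and CDK12 by group; points are single libraries and the bars beside them the mean and SD of 3. ZNF57, ZNF550 and ZNF704 were lowest or nearly so in shNT and fell between shCDK12 and shCDK12_OHT, ZNF608 and ZNF641 were lowest in shCDK12, and CDK12 itself overlapped between shNT and shCDK12.

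The 8 most counted members moved both ways between shNT and the libraries labelled shCDK12. ZNF12, a KRAB gene, was at 381, 372 and 355 CPM in shNT and 675, 732 and 678 CPM in shCDK12, a log2 fold change of 0.91 ± 0.08 (adjusted p = 2.69e-10). ZNF451, a SUMO ligase, was at 375, 445 and 397 CPM against 608, 743 and 695 CPM, a log2 fold change of 0.75 ± 0.09 (adjusted p = 5.36e-08). Both groups were clear of each other at these genes. ZNF146, made almost only of fingers, fell from 660.3, 641 and 582 CPM to 484, 528 and 485 CPM, -0.34 (adjusted p = 0.000598), and ZNF518B, which associates with the G9a methyltransferase, from 525, 537 and 457 CPM to 362, 405 and 392 CPM, -0.39 (adjusted p = 0.000177). ZNF24, a SCAN domain repressor, was at 398, 393 and 385 CPM and 334, 421 and 391 CPM, which overlapped, -0.04 (adjusted p = 0.727). The breast cancer oncogene ZNF217 was at 672, 686 and 578 CPM and 574, 512 and 518 CPM, -0.28 (adjusted p = 0.0045), and was not called without shNT replicate 2 (-0.23, adjusted p = 0.0723). ZNF697 was at 897, 923 and 899.6 CPM and 713, 830.0 and 744 CPM, -0.25 (adjusted p = 0.00592), and was not called without the same library (-0.24, adjusted p = 0.0556). ZNF644, a partner of G9a, was at 397, 479.9 and 409 CPM and 491, 586 and 525 CPM, 0.32 (adjusted p = 0.00286), and was not called with all 12 libraries in 1 fit (adjusted p = 0.129).

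Members with roles outside repression were followed by lists. Of 6 members that act on RNA, ribosomes or ubiquitin, 5 rose and 1 fell in the libraries labelled shCDK12 against shNT, with a median of 0.53. Of all genes tested, 62.0% were called there, 29.6% higher and 32.4% lower. The rise of ZNF207 was not called without shNT replicate 1 or 3 or shCDK12 replicate 2 (adjusted p = 0.0845, 0.0506 and 0.115). ZNF598, the ubiquitin ligase that marks collided ribosomes, was at 52.9, 50.7 and 59.1 CPM in shNT and 77.6, 93.2 and 86.0 CPM in shCDK12, a log2 fold change of 0.67 ± 0.13 (adjusted p = 5.27e-05). ZNF622, a factor of the late 60S ribosomal subunit, was at 82.0, 78.8 and 62.6 CPM against 122, 123 and 133 CPM, a log2 fold change of 0.74 ± 0.11 (adjusted p = 2.51e-06). At both genes the groups did not overlap. The 1 that fell was ZNF638, which works with the HUSH silencing complex, from 206, 211 and 206 CPM to 103, 111 and 111 CPM, -0.94 (adjusted p = 2.38e-09). With OHT in both groups 0 of the 6 rose by edgeR, at an unadjusted p under 0.05 or by DESeq2, and 1, ZNF598, fell, at -0.40 (adjusted p = 0.0346), a call that was lost without shCDK12_OHT replicate 1, 2 or 3 (adjusted p = 0.14, 0.132 and 0.0914). In that comparison 23.8% of all genes tested were higher and 21.6% lower.

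Of 12 members of chromatin complexes or the SUMO pathway, 5 rose and 6 fell in the libraries labelled shCDK12 against shNT, where 29.6% of all genes tested were higher and 32.4% lower, while 5 rose and 1 fell in those labelled shCDK12_OHT against shNT_OHT, where the shares were 23.8% and 21.6%. Without OHT, the fall of ZNF532 was not called without shNT replicate 1 or 2 or shCDK12 replicate 2 or 3 (adjusted p = 0.332, 0.0823, 0.0987 and 0.0742). With OHT, the 1 fall, ZNF518B, was not called without shCDK12_OHT replicate 1, 2 or 3 (adjusted p = 0.0904, 0.138 and 0.123), nor the rise of ZNF512 without replicate 2 or 3 of that group (adjusted p = 0.0686 and 0.0658). ZNF687, which forms a complex with ZMYND8, was at 133, 138 and 142 CPM in shNT and 91.7, 81.3 and 99.4 CPM in shCDK12, -0.60 (adjusted p = 1.93e-05), and rose to 149.6, 149 and 126 CPM in shCDK12_OHT, 0.65 (adjusted p = 3.28e-05). Its partner ZNF592 was not called in any of the 5 comparisons. Of 6 activators and lineage factors, 4 rose and 1 fell without OHT. Among these, the rise of ZNF335 was not called by edgeR without shCDK12 replicate 3 (adjusted p = 0.0548) or with all 12 libraries in 1 fit (adjusted p = 0.0991). ZNF281, a pluripotency-linked factor, was at 254, 242 and 214 CPM against 307, 335 and 336 CPM, 0.45 (adjusted p = 6.1e-05), and ZNF410, an activator of CHD4, at 229, 252 and 199 CPM against 139, 148 and 156 CPM, -0.63 (adjusted p = 2.26e-06). Of 4 listed KRAB repressors, ZNF10 and ZNF268 rose and ZNF202, a repressor of lipid genes, fell, at -0.52 (adjusted p = 7.84e-05), while the imprint regulator ZNF445 was not called, with 253, 228 and 223 CPM in shNT and 244, 205 and 224 CPM in shCDK12.

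The co-repressor machinery that KRAB proteins use was measured alongside. Of 19 listed genes, 8 rose and 4 fell in the libraries labelled shCDK12 against shNT, and 2 rose and 6 fell in those labelled shCDK12_OHT against shNT_OHT. The 63.2% and 42.1% called stand beside 62.0% and 45.4% of all genes tested. Without shCDK12_OHT replicate 2, the falls with OHT of SETDB1, DNMT1 and UHRF1 were not called (adjusted p = 0.158, 0.0948 and 0.066). The fall of SETDB1 was also lost without shCDK12_OHT replicate 1 (adjusted p = 0.15) or shNT_OHT replicate 3 (adjusted p = 0.0525), that of DNMT1 without shCDK12_OHT replicate 1 or 3 (adjusted p = 0.0652 and 0.0815) and that of UHRF1 without shCDK12_OHT replicate 3 (adjusted p = 0.0876). The rise of CHD3 with OHT was lost by edgeR without shCDK12_OHT replicate 3 (adjusted p = 0.0529). Without OHT, the fall of SETDB1 was lost without shNT replicate 1 (adjusted p = 0.0841), the rise of CBX1 without shNT replicate 3 or shCDK12 replicate 1 (adjusted p = 0.0597 and 0.0569) and the rise of SMARCAD1 without shNT replicate 1 or 3 or shCDK12 replicate 2 (adjusted p = 0.0815, 0.118 and 0.156). The rise of HDAC1 without OHT was lost by edgeR at equal depth (adjusted p = 0.0549). Upon OHT in shNT 0 of the 19 were called by edgeR, 4 had an unadjusted p under 0.05 and DESeq2 called 1. TRIM28, the scaffold bound by KRAB, was at 122, 119 and 112 CPM in shNT and 252, 236 and 226 CPM in shCDK12, a log2 fold change of 1.01 ± 0.09 (adjusted p = 7.22e-10). ATF7IP, which stabilises SETDB1, was at 38.2, 53.3 and 38.6 CPM against 70.0, 68.3 and 77.5 CPM, a log2 fold change of 0.71 ± 0.14 (adjusted p = 0.000106). Both lay fully above shNT. TASOR, a subunit of the HUSH complex, was at 74.7, 84.3 and 84.2 CPM against 36.1, 38.1 and 39.0 CPM, -1.10 ± 0.13 (adjusted p = 6e-08), and CBX5 (HP1 alpha) at 320.2, 319 and 307 CPM against 194, 203 and 202 CPM, -0.66 ± 0.08 (adjusted p = 1.58e-07). Both lay fully below shNT.

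Gene length and base composition moved with some of these differences across genes. In shNT_OHT against shNT, Pearson's r of the log2 fold change with log10 gene length was -0.25 over the members and -0.29 over all genes tested, and with transcript GC content 0.36 and 0.27. In shCDK12_OHT against shNT_OHT the same values were 0.27 and 0.21 for length and -0.38 and -0.26 for GC. In shCDK12 against shNT they were 0.08 and -0.05, and -0.09 and -0.10. KRAB members had a lower median transcript GC content (42.6%) than the other members (45.7%) and all genes with the same count (47.1%). With both trends removed per library, 121 members rose and 57 fell in the libraries labelled shCDK12 against shNT with a median log2 fold change of 0.32, and 85 rose and 40 fell in those labelled shCDK12_OHT against shNT_OHT, with a median of 0.10, where it was 0.18 before.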

How the data were processed

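Nascent RNA was measured by EU-seq in 12 libraries of U2OS-MycER cells, 3 in each of 4 groups taken from the library titles. The authors deposited 1 matrix of raw counts per gene, and the submitters' processing notes name STAR 2.7.5c, featureCounts 1.4.5-p1 and hg19. Multimapping and strand settings are not given in the sources used here. The 150 rows without a symbol stayed in the fits. Library totals of 1251695 to 10447836 counts limit what shNT_OHT can show.

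Testing was limited to genes whose normalized counts averaged more than 32 in a fit's libraries and was done with edgeR 4.0.16 (R 4.3.3; TMM, quasi-likelihood test, Benjamini-Hochberg adjustment over all genes tested, threshold 0.05), in 6 libraries per comparison and in all 12 for the interaction; the scripts were tested on simulated data. Alternatives were upper-quartile scaling, DESeq2 1.42.0, no filter, 1 fit of all libraries, a replicate block, thinning to 1251695 counts, leaving out each library and, chosen after seeing the data, removal of length and GC trends. The replicate numbers were not taken as pairs. KRAB domains (at least 22 of 37 positions of a pattern) and C2H2 fingers were found in translations of GENCODE release 44 transcripts, in place of the planned RefSeq proteins. Gene order, overlaps and promoters came from RefSeq GRCh38.p14, while the counts are on hg19. The only coordinates printed are those of the promoter windows, which are on GRCh38.p14. The members, gene lists and tests were chosen with earlier results of these data known. The genes named are, per comparison, the 6 largest rises and 6 largest falls among members that were called with no overlap between the groups (for the interaction, called only), the 8 most counted members, the listed role and co-repressor genes, CDK12, the cell type markers and the genes beside the count limit; exceptions are stated where they are named.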

Additional observations from a re-analysis of the deposited data

Results flagged for a closer look

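The response to OHT differed between the shNT libraries and those labelled shCDK12 at 114 of the 230 members. Calls are by the interaction term of edgeR's quasi-likelihood test, which called 45.2% of all genes tested. Of the genes with a mean count of at least 200 it called 28.1% higher and 25.7% lower, so such calls were not particular to the members. The 6 members with the largest positive difference, as the log2 response in the libraries labelled shCDK12 minus that in shNT, were ZNF608 (1.90), ZNF772 (1.53), ZNF318 (1.41), ZNF627 (1.41), ZNF780A (1.38) and ZNF641 (1.32). The 6 with the largest negative difference were ZNF704 (-2.99), ZNF550 (-2.05), ZNF57 (-1.89), ZNF485 (-1.73), ZNF695 (-1.72) and ZNF584 (-1.63). All 12 kept their call and sign under every alternative run. At ZNF627, ZNF780A and ZNF695 the first shNT_OHT library was the lowest of its group, at 26.6, 26.3 and 20.7 CPM, and its part in the difference was measured only by leaving it out, which ended none of the 3 calls.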

How the results depend on the processing

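Members rose more often than they fell under every alternative run between the shRNA groups, with and without OHT. With OHT the excess was small, 33 against 27, among members with at least 200 counts in every group. Members without KRAB turned to more falls than rises with OHT under upper-quartile scaling. Upper-quartile scaling moved the median log2 fold change of the members to 0.385 in shCDK12 against shNT, and in shCDK12_OHT against shCDK12 to -0.0154, as DESeq2 did to -0.00716. With all 12 libraries in 1 fit, 76 members were called in shNT_OHT against shNT (41 in the 6-library fit) and 89 in shCDK12_OHT against shCDK12 (136). In that last comparison 60 rose and 74 fell under upper-quartile scaling, 60 and 69 with DESeq2, 46 and 43 in the 12-library fit and 51 and 50 at equal depth. Leaving out 1 library gave 13 to 73 members called in shNT_OHT against shNT (medians 0.0307 to 0.171), 159 to 177 in shCDK12 against shNT (0.268 to 0.323), 63 to 140 in shCDK12_OHT against shNT_OHT (0.118 to 0.208), 110 to 142 in shCDK12_OHT against shCDK12 (0.0234 to 0.0612) and 92 to 126 for the interaction (-0.0816 to 0.0774). The causes were not tested. ZNF148 turned to -0.132 in shCDK12_OHT against shNT_OHT with length and GC trends removed, and CDK12 to 0.0145 in shCDK12 against shNT under upper-quartile scaling. Of 261 called values of single genes, 183 kept their call and sign in all alternatives and 78 lost the call in at least 1, 67 of them on leaving out a library. Deviations from the group mean had r over 0.1 in 2 of 18 pairs of libraries with the same replicate number, with a maximum of 0.31. Between libraries with different numbers r reached at most 0.0996. With the replicate block 31 members rose and 12 fell in shNT_OHT against shNT, 121 and 57, 75 and 27, and 79 and 61 in the other comparisons in the order above, and 50 and 69 in the interaction.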
